A study of Mus musculus with 9 samples.

Results

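The liver remnants of mice given the SHP2 inhibitor NSC-87877 (NSC) were compared with those of mice given vehicle, 40 h after partial hepatectomy, in 6 of the 9 RNA-Seq libraries of the study. The members were chosen by their labels alone and comprised 3 NSC-treated and 3 vehicle-treated livers. All 6 mice were C57/BL6 animals of 12 weeks that had 70% of the liver removed. Per the study's methods they were male and of the C57BL/6J strain. NSC, dissolved in saline, was injected into the peritoneum in doses of 7.5 mg/kg, for a total of 15 mg/kg each day, and vehicle mice received saline alone. Dosing began before surgery, by 12 h per the sample records, and continued until 40 h. The other 3 libraries, resected tissue of vehicle-treated mice taken at surgery, served to show the level before regeneration. They also entered an alternative fit of all 9 libraries. NSC also inhibits SHP1, so the treatment is not specific to a single phosphatase. The RNA came from whole liver, in which fewer cells of a type and less RNA per cell cannot be told apart.

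SHP2, encoded by *Ptpn11*, is a tyrosine phosphatase that binds activated growth factor receptors through adaptors and promotes signaling through RAS and ERK. After hepatectomy, growth factors and cytokines drive the remaining hepatocytes from quiescence into DNA synthesis and then mitosis. Immediate early genes such as *Fos* and *Egr1* are the classic transcriptional readout of ERK, and they are switched on without new protein synthesis. The same remnant must keep up gluconeogenesis, urea production and plasma protein secretion while it grows.

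The counted reads per library were 37872295, 42887589 and 27956396 with vehicle and 30201051, 28786619 and 23997363 with NSC, so that 3 counts amounted to between 0.07 and 0.125 CPM, the count scaled to an equal library size. *Alb*, the hepatocyte product albumin, was the most abundant gene in all 6. NSC liver 1 stood apart from its group. It lay at -49.0 on the second principal component of log2 CPM, where the other 5 livers lay between -6.30 and 33.1, while NSC livers 2 and 3 lay at 35.8 and 52.7 on the first component and the other 4 livers at -11.2 or below. Log2 CPM of NSC livers 1 and 3 correlated at 0.950 across genes, against 0.979 to 0.985 among vehicle livers. Deviations of single libraries also followed the GC content of the genes. Their Spearman correlation with GC content across genes was 0.469, 0.595 and -0.007 in the vehicle livers and -0.403, -0.433 and -0.106 in the NSC livers, so the groups did not overlap in this respect. List medians are therefore set beside their values without NSC liver 1, without another liver or after correction for GC content where these moved them most. Fold changes of genes are given after GC correction too where it moved them by over 1.5 times. The part of GC content in the results was not tested beyond that correction.

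**Figure D1:**
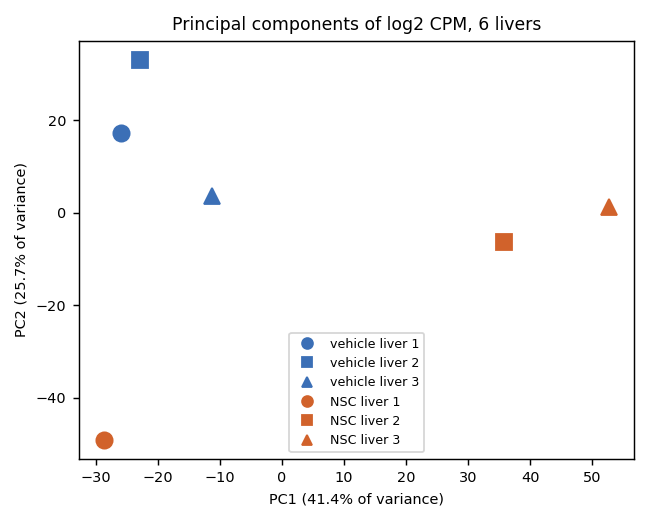
Principal components of log2 CPM over the tested genes, PC1 (41.4% of variance) against PC2 (25.7%), 1 point per liver. Vehicle livers lie together at the upper left, NSC livers 2 and 3 at the right, and NSC liver 1 alone at the lower left at -28.6 and -49.0.

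Few genes differed beyond the spread between livers. Of 14485 genes tested by edgeR's quasi-likelihood test, 6 had a Benjamini-Hochberg adjusted p under 0.05. *Saa3*, a serum amyloid A gene, was higher with NSC. The immediate early transcription factor genes *Egr2* and *Junb*, the mevalonate pathway gene *Mvd*, the pyrimidine synthesis gene *Cad* and the ubiquitin ligase gene *Syvn1* were lower. These calls were 0.0069% of the tested genes in the higher and 0.0345% in the lower direction. An unadjusted p under 0.05 was reached by 1043 genes that were higher with NSC (7.20%) and 1345 that were lower (9.29%). Genes whose 3 NSC livers all lay outside the range of the 3 vehicle livers numbered 1431 above (9.88%) and 1864 below (12.9%). These shares of all genes are the background for the counts of list members below. After correction for GC content, 567 genes (3.94%) were higher and 609 (4.24%) lower at an unadjusted p under 0.05. With scaling by library size alone, which moved the median log2 fold change of all genes from 0.0092 to 0.14, the split was 1897 higher against 633 lower. DESeq2 called 386 genes, edgeR's exact test 256 and limma voom with sample quality weights 1705, all at an adjusted p under 0.05.

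**Figure D2:**
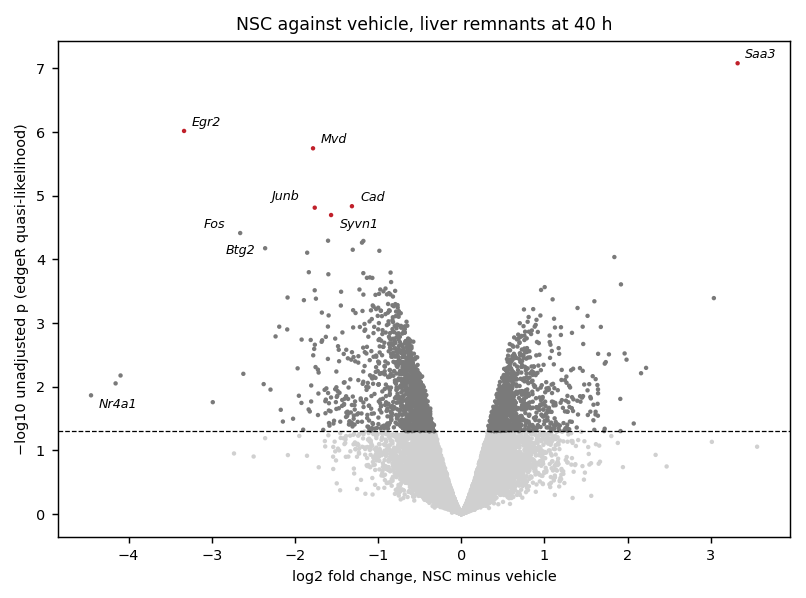
Log2 fold change, NSC minus vehicle, against −log10 of the unadjusted edgeR p for 14485 genes. Red points are the 6 genes with an adjusted p under 0.05, dark grey points have an unadjusted p under 0.05 (dashed line), and *Nr4a1* lies far to the left with a low −log10 p.

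The number of calls depended on NSC liver 1 more than on any other library. The median standard deviation of log2 CPM within a group was 0.284 over the NSC livers and 0.212 over the vehicle livers, and it was larger with NSC for 62.9% of genes. Without NSC liver 1, 1179 genes were called, of which 624 (4.25%) were higher and 555 (3.78%) lower, and all 6 genes above remained among them. Without vehicle liver 2, NSC liver 2 or NSC liver 3, only *Saa3* was called. Without vehicle liver 1, 3 genes were called, all among the 6, and without vehicle liver 3, 8 genes, of which 2 were among the 6.

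Transcripts of the drug targets themselves did not pass the test. *Ptpn11* was at 87.0, 95.7 and 89.3 CPM in vehicle livers 1 to 3 and at 97.2, 83.7 and 77.1 CPM in NSC livers 1 to 3 (log2 fold change -0.08, standard error 0.16, adjusted p = 0.835). The groups overlapped, and the sign turned with scaling by library size alone (0.06) and with GC correction (0.01). *Ptpn6*, which encodes SHP1, was at 19.7, 20.5 and 17.2 CPM with vehicle and at 16.5, 16.1 and 14.5 CPM with NSC (-0.29, standard error 0.16, adjusted p = 0.380; -0.03 after GC correction). Of 19 tested genes for SHP2, SHP1 and their adaptors and partners, 2 were lower at an unadjusted p under 0.05 (10.5%, against 9.29% of all genes). The list median was 0.0021.

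Immediate early genes were lower with NSC as a group. Of the 34 genes listed, 27 passed the filter on low counts, and 24 of these were lower. The median log2 fold change was -1.59, against 0.0092 over all tested genes. *Egr2* and *Junb* were called, against 0.0345% of all genes called lower. An unadjusted p under 0.05 was reached by 16 genes, all lower, where 9.29% of all tested genes were lower at that threshold. In 12 genes every NSC liver lay below every vehicle liver, against 12.9% of all tested genes. With 1 liver left out the median ranged from -1.82 to -1.14. Without NSC liver 1 it was -1.53 and the genes called lower numbered 12 instead of 2, where 3.78% of all genes were called lower. After GC correction the median was -1.31, with 12 genes lower (4.24% of all genes) and 1 higher (3.94% of all genes) at an unadjusted p under 0.05.

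*Egr2* (ENSMUSG00000037868, chromosome 10, 67535475 to 67542188) encodes a zinc finger factor of the early growth response family. It was at 4.51, 4.72 and 3.64 CPM with vehicle and at 0.528, 0.340 and 0.395 CPM with NSC, so that the groups lay far apart. The log2 fold change was -3.33 (standard error 0.33, adjusted p = 0.00696), and it was called after GC correction too (-3.21, adjusted p = 0.0117). In resected liver, on a scale shared by 9 libraries, *Egr2* did not exceed 0.165 CPM. *Egr1*, its better known relative, was at 274, 395 and 288 CPM with vehicle and at 75.5, 148 and 61.7 CPM with NSC (-1.75, standard error 0.33, adjusted p = 0.137). All 3 NSC livers were again below all vehicle livers, and NSC liver 2 was the highest of its group.

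Genes for components of the AP-1 transcription factor were lower as well. *Junb* (ENSMUSG00000052837, chromosome 8, 84976909 to 84978748) was at 55.6, 66.4 and 49.9 CPM with vehicle and at 11.21, 20.3 and 19.2 CPM with NSC (-1.76, standard error 0.23, adjusted p = 0.0446). It lost its call after GC correction (-1.31, adjusted p = 0.215). *Fos* was at 111, 92.8 and 76.2 CPM with vehicle and at 7.67, 19.04 and 17.7 CPM with NSC (-2.66, standard error 0.34, adjusted p = 0.0790). Here NSC liver 1 was the lowest of all, and without it *Fos* passed the test (-2.33, adjusted p = 6.74e-06). *Fosb* overlapped, because vehicle liver 3 (0.190 CPM) lay below NSC livers 2 and 3 (0.476 and 0.237 CPM).

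Vehicle liver 3 also carried little of the orphan nuclear receptor gene *Nr4a1*. Its levels were 88.8, 80.9 and 4.78 CPM with vehicle and 1.86, 2.45 and 3.71 CPM with NSC. The groups did not overlap, but the vehicle livers spanned almost the whole range, and the log2 fold change of -4.45 had a standard error of 1.19 (adjusted p = 0.210). Resected livers lay between 2.78 and 20.5 CPM. *Atf3*, a stress-induced repressor, showed the same low value in vehicle liver 3, with 77.8, 29.2 and 2.81 CPM against 14.0, 2.58 and 2.81 CPM, and the groups overlapped.

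*Btg2*, an antiproliferative gene that growth signals and p53 induce, was at 340, 386 and 169 CPM with vehicle and at 52.8, 77.7 and 44.0 CPM with NSC (-2.36, standard error 0.34, adjusted p = 0.0813). *Plk3*, a stress-responsive polo-like kinase gene, was at 120, 151 and 78.5 CPM against 45.4, 36.7 and 33.0 CPM (-1.60, standard error 0.24, adjusted p = 0.0790). Neither pair of groups overlapped, and without NSC liver 1 both passed the test.

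The promoters of these genes are shown because serum response factor and CREB, which relay ERK and cAMP signals, act through short boxes upstream of many of them. RefSeq start sites (GRCm38.p6) gave windows for 22 of the 27 tested members, and only the 250 bases before each start were searched, on both strands. The CArG box, the binding motif of serum response factor, occurred in 4 of 22 members (18.2%: *Egr2*, *Dusp5*, *Zfp36* and *Srf*) and in 142 of 10064 tested genes with a window (1.41%). The cAMP response element TGACGTCA occurred in 3 of 22 (13.6%: *Dusp1*, *Btg2* and *Maff*) and in 297 of the 10064 (2.95%). Holding a box went with no common direction. The 142 genes with a CArG box had a median log2 fold change of -0.03, and the 297 with the cAMP response element had 0.04. Capitals mark the box, at 72 to 63 bases before the start in *Egr2* (chr10:67537316-67537565, plus strand) and at 166 to 159 bases before it in *Btg2* (chr1:134079156-134079405, minus strand). Where a gene had several windows, as *Egr2* with 5, the window that held the box is printed.
Egr2: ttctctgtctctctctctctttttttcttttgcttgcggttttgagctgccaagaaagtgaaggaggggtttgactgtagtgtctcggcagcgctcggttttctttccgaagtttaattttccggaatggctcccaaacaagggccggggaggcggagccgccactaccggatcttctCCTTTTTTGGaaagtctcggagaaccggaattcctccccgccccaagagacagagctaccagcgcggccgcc
Btg2: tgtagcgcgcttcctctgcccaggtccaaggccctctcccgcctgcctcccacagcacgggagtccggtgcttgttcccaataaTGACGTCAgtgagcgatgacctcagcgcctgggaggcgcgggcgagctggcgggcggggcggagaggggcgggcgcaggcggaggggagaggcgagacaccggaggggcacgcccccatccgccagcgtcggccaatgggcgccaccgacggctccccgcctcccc

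Feedback and target genes of ERK had a smaller median difference than the immediate early genes. The list of ERK feedback and target genes had 14 tested members with a median of -0.26, of which 2 were lower at an unadjusted p under 0.05 (14.3%, against 9.29% of all genes). The median was -0.46 without NSC liver 1, -0.09 without vehicle liver 1 and -0.13 after GC correction. *Dusp6*, the phosphatase that switches ERK off, was at 132, 139 and 59.1 CPM with vehicle and at 55.2, 46.5 and 34.3 CPM with NSC (-1.28, standard error 0.33, adjusted p = 0.162). The ephrin receptor gene *Epha2* was at 31.2, 28.6 and 17.1 against 22.5, 14.6 and 14.9 CPM, and vehicle liver 3 overlapped with the NSC livers. *Spry4*, another inhibitor of the pathway, overlapped as well (-0.34, standard error 0.30).

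Targets of YAP and TAZ, which the study followed by other assays, showed no shared direction. The 26 tested members had a median of -0.02, and 12 were higher and 14 lower. The sign was positive after GC correction (0.14) and with scaling by library size alone (0.107), and the median was -0.18 without NSC liver 1. *Ctgf* was at 6.40, 1.76 and 3.49 CPM with vehicle and at 7.89, 2.62 and 4.82 CPM with NSC (0.39, standard error 0.52), a sign that sample quality weights turned (-0.29). *Cyr61*, a matricellular gene like *Ctgf*, was at 47.0, 18.1 and 7.29 against 6.83, 15.3 and 15.2 CPM, and *Nuak2* differed by 0.10 (standard error 0.21; 0.33 after GC correction). *Yap1* itself differed by 0.07 (standard error 0.15), which GC correction turned to -0.07, and *Wwtr1*, which encodes TAZ, by 0.31 (standard error 0.18; 0.11 after GC correction).

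Genes of the unfolded protein response, which restores folding capacity in the endoplasmic reticulum, were lower with NSC. All 24 listed genes were tested and 22 were lower, with a median log2 fold change of -0.48. At an unadjusted p under 0.05, 11 were lower (45.8%, against 9.29% of all genes) and none higher, and in 10 the NSC livers lay below all vehicle livers (41.7%, against 12.9%). The median was -0.53 without NSC liver 1, -0.29 without vehicle liver 3 and -0.49 after GC correction. In that last setting 12 genes were lower at an unadjusted p under 0.05, against 4.24% of all genes. Synoviolin, encoded by *Syvn1* (ENSMUSG00000024807, chromosome 19, 6046576 to 6053712), is the ubiquitin ligase that disposes of misfolded proteins at the endoplasmic reticulum. It was at 238, 176 and 296 CPM with vehicle and at 87.2, 81.7 and 70.7 CPM with NSC (-1.57, standard error 0.21, adjusted p = 0.0486). The call was lost after GC correction (-1.27, adjusted p = 0.461).

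*Hyou1*, a chaperone gene, was at 579, 413 and 550 CPM with vehicle and at 255, 244 and 203 CPM with NSC (-1.14, standard error 0.20, adjusted p = 0.129). *Creld2*, which encodes a secreted folding factor, was at 141, 97.8 and 274 CPM against 69.4, 54.2 and 60.9 CPM (-1.47, standard error 0.35, adjusted p = 0.156). The master chaperone BiP, encoded by *Hspa5*, was at 1859, 1214 and 2357 CPM against 1174, 1200 and 1052 CPM (-0.66, standard error 0.26, adjusted p = 0.249), and vehicle liver 2 was barely above the NSC livers. *Dnajb9*, a target of the same response, overlapped between groups (-0.08, standard error 0.28; -0.38 after GC correction), and its sign turned with scaling by library size alone (0.04).

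Many genes of this list share the endoplasmic reticulum stress element, CCAAT and CCACG held 9 bases apart, through which ATF6 and XBP1 act with NF-Y. It occurred upstream of 9 of the 20 members with a window (45%: *Hspa5*, *Hsp90b1*, *Dnajc3*, *Pdia6*, *Syvn1*, *Derl3*, *Creld2*, *Calr* and *Canx*) and of only 17 of the 10064 tested genes (0.169%). Among these 17 genes 15 were lower with NSC, 7 of them at an unadjusted p under 0.05 (against 9.29% of all genes), with a median of -0.50. Most of the 17 are the 9 members just named, so these values largely repeat those of the list. The element is shown in capitals in the 3 members described above, on the reverse strand in *Creld2*. It spans 44 to 26 bases before the start in *Syvn1* (chr19:6046326-6046575), 126 to 108 in *Creld2* (chr15:88819396-88819645) and 65 to 47 in *Hspa5* (chr2:34771840-34772089), all genes on the plus strand.
Syvn1: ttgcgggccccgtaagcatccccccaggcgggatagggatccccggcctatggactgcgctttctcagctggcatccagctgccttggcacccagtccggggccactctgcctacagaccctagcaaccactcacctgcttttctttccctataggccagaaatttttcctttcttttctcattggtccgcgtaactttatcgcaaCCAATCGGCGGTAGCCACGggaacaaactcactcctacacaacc
Creld2: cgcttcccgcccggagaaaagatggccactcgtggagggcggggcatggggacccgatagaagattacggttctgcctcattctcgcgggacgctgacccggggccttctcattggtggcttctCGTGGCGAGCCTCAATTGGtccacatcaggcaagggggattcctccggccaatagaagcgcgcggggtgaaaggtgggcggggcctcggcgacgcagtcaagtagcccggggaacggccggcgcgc
Hspa5: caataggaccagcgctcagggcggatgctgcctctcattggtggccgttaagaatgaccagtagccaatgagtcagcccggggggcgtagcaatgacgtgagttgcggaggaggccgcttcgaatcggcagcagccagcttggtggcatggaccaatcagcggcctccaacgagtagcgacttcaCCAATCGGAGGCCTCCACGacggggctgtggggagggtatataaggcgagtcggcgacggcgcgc

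The related integrated stress response, in which ATF4 activates amino acid supply genes, was lower by less. Of 30 tested genes 28 were lower, with a median of -0.32, and 6 were lower at an unadjusted p under 0.05 (20%, against 9.29% of all genes). The median was -0.15 without vehicle liver 1 and -0.48 without vehicle liver 3. As a median over the members of log2 CPM minus the mean of all livers, NSC liver 1 (0.07) lay within the vehicle range of -0.15 to 0.47. *Wars*, a tRNA synthetase gene, was at 31.9, 35.9 and 32.9 CPM with vehicle and at 20.7, 24.5 and 19.3 CPM with NSC (-0.64, standard error 0.16, adjusted p = 0.149). *Phgdh*, which starts serine synthesis, was at 5.74, 2.86 and 1.52 against 1.03, 0.680 and 1.38 CPM. *Ddit3*, which encodes the death-promoting factor CHOP, was at 28.3, 17.3 and 39.4 CPM with vehicle and at 17.8, 5.75 and 5.77 CPM with NSC, and NSC liver 1 overlapped with vehicle liver 2 (-1.53, standard error 0.56, adjusted p = 0.268). Without NSC liver 1 *Ddit3* passed the test (-2.28, adjusted p = 0.00400). *Atf4* differed by -0.26 (standard error 0.16), which GC correction turned to 0.01. The cytosolic heat shock genes had a median of -0.12 over 22 genes, of which 1 was lower at an unadjusted p under 0.05 (4.55%, against 9.29% of all genes). Their median was 0.13 without vehicle liver 3.

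Sterol synthesis was the metabolic pathway with the broadest difference. The list held the enzymes of cholesterol synthesis and other targets of SREBP2, the factor that senses sterol shortage. Of 26 genes tested 24 were lower with NSC, 16 at an unadjusted p under 0.05 (61.5%, against 9.29% of all genes) and 13 with groups apart (50%, against 12.9%), and none was higher at that threshold. The median log2 fold change was -0.69. It was -0.71 without NSC liver 1, where 14 genes were called lower (against 3.78% of all genes). After GC correction it was -0.55, and 14 genes were lower at an unadjusted p under 0.05 (against 4.24% of all genes). Vehicle liver 2 had the highest levels and vehicle liver 1 the lowest of the vehicle group, as list scores of 0.67 and -0.04 show, while the NSC livers scored -0.23, -0.30 and -0.58. A list score is the median over the members of log2 CPM minus the mean of the 6 livers.

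*Mvd* (ENSMUSG00000006517, chromosome 8, 122433596 to 122443422) encodes mevalonate diphosphate decarboxylase, which makes isopentenyl diphosphate. It was at 30.3, 44.0 and 39.6 CPM with vehicle and at 11.4, 12.0 and 9.68 CPM with NSC (-1.78, standard error 0.19, adjusted p = 0.00869). Resected liver held 32.0 to 55.0 CPM on the scale of 9 libraries. Its call was lost after GC correction (-1.40, adjusted p = 0.166). *Mvk*, the gene of a kinase earlier in the pathway, was at 37.0, 45.4 and 30.8 against 15.5, 17.8 and 16.8 CPM (-1.18, standard error 0.18, adjusted p = 0.0790).

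*Lss*, which closes the sterol ring, was at 129, 231 and 133 CPM with vehicle and at 75.7, 75.0 and 49.3 CPM with NSC (-1.30, standard error 0.27, adjusted p = 0.137). The groups were apart, and vehicle liver 2 was the highest. *Srebf2*, which encodes SREBP2, was lower by 0.86 on the log2 scale (standard error 0.18, adjusted p = 0.137; -0.49 after GC correction), with 77.7, 91.4 and 65.1 against 48.5, 43.9 and 36.5 CPM. For fatty acid synthesis the median was -0.21 over 26 genes (-0.05 without vehicle liver 2, -0.38 without vehicle liver 1, -0.11 after GC correction). At an unadjusted p under 0.05, 3 were lower (11.5%, against 9.29% of all genes) and 1 higher (3.85%, against 7.20%). *Fasn* was at 200, 462 and 208 CPM against 126, 145 and 118 CPM.

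**Figure D3:**
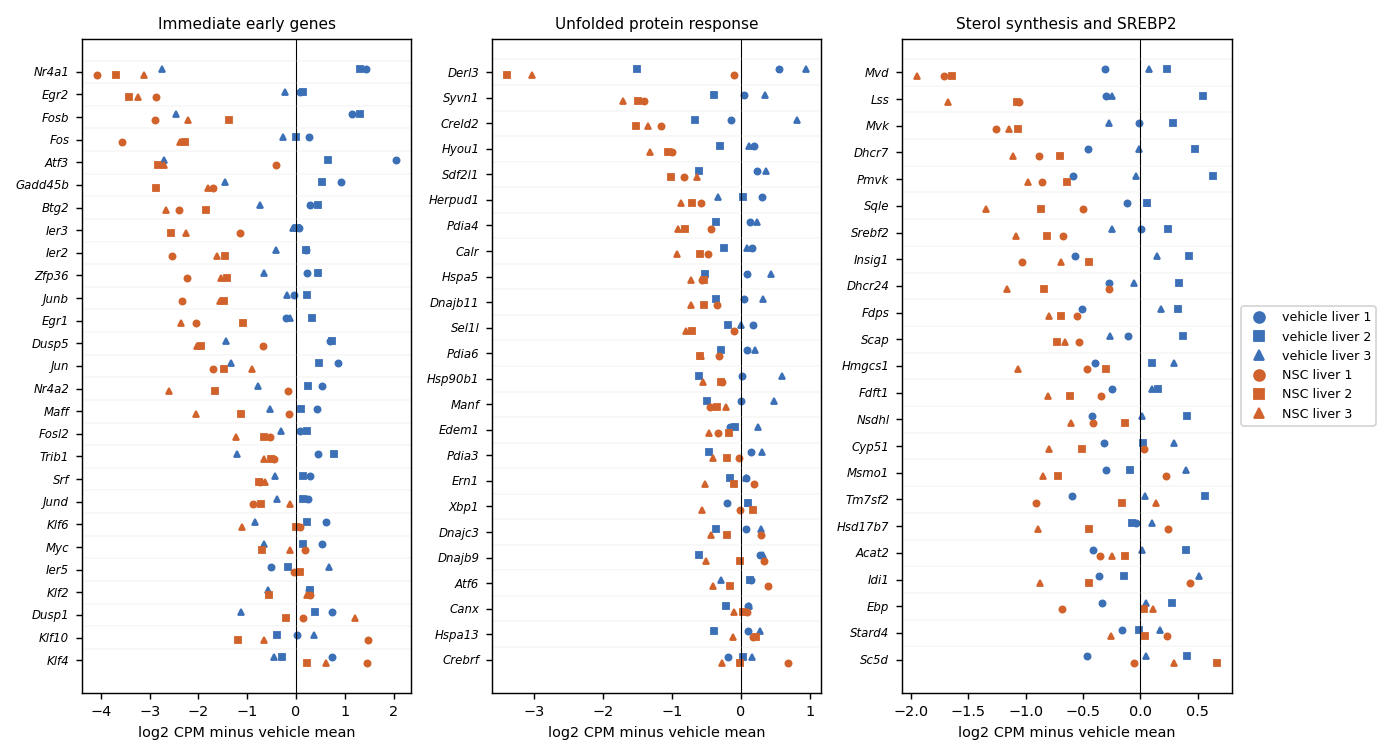
Log2 CPM minus the vehicle mean (x axis) for tested genes (rows, ordered by fold change) of the immediate early (27 shown), unfolded protein response (24 shown) and sterol (23 of 26 shown) lists, 1 symbol per liver. NSC livers lie to the left of the vehicle livers for most genes, and vehicle liver 3 (blue triangles) lies near the NSC livers for *Nr4a1*, *Fosb* and *Atf3*.

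Nucleotide and ribosome supply genes were also among the lower ones. *Cad* (ENSMUSG00000013629, chromosome 5, 31054780 to 31078479) encodes the enzyme complex that starts pyrimidine synthesis and is a MYC target. It was at 34.7, 29.0 and 25.4 CPM with vehicle and at 12.2, 12.7 and 10.9 CPM with NSC (-1.31, standard error 0.17, adjusted p = 0.0446), against 11.6 to 18.4 CPM in resected liver. GC correction ended that call (-0.97, adjusted p = 0.261). In the list of ribosome biogenesis genes and MYC targets, 10 of 35 were lower (28.6%, against 9.29% of all genes) and 3 higher at an unadjusted p under 0.05, but the median was -0.09, with a range of -0.17 to -0.03 with 1 liver left out, and turned to 0.03 with scaling by library size alone. *Srm*, which makes spermidine, was at 47.9, 37.4 and 44.1 against 24.5, 24.3 and 29.5 CPM (-0.72, standard error 0.16, adjusted p = 0.144; -0.34 after GC correction). *Bop1*, a factor for the large ribosomal subunit, was at 31.0, 31.6 and 22.4 against 15.8, 17.2 and 19.7 CPM.

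*Saa3* was the only gene called higher with NSC. Saa3 (ENSMUSG00000040026, chromosome 7, 46711998 to 46715676) is a serum amyloid A protein that macrophages, fat cells and inflamed liver make. Its levels were 28.8, 37.4 and 34.7 CPM with vehicle and 396, 224 and 390 CPM with NSC, so that the lowest NSC liver was several times above the highest vehicle liver. The log2 fold change was 3.32 (standard error 0.26, adjusted p = 0.00120), and 3.31 after GC correction (adjusted p = 0.00466). Of 16 alternative fits it lost its call in 1, the fit with all 9 libraries (3.33, adjusted p = 0.165), in which resected livers ranged from 8.24 to 107 CPM. The classical hepatic genes *Saa1* and *Saa2*, which are near-identical and may share reads, overlapped between the groups (0.53 with standard error 0.35 and 0.46 with standard error 0.38).

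The other acute phase genes were mostly lower, most clearly in NSC liver 3. The list of 32 genes had a median of -0.36, with 9 lower (28.1%, against 9.29% of all genes) and 1 higher at an unadjusted p under 0.05, the higher being *Saa3*. The median was -0.49 without NSC liver 1, -0.17 without NSC liver 3 and -0.16 without vehicle liver 3. NSC livers 1 and 2 scored -0.02 and 0.05, within the vehicle range of -0.13 to 0.36. *Socs3*, the feedback inhibitor of IL-6 signaling, was at 81.2, 83.6 and 64.0 CPM with vehicle and at 34.4, 38.6 and 26.9 CPM with NSC (-1.19, standard error 0.18, adjusted p = 0.0790). The metallothionein gene *Mt1* was at 892, 1619 and 1091 against 459, 461 and 207 CPM (-1.68, standard error 0.34, adjusted p = 0.137). *Lbp*, which presents bacterial lipopolysaccharide, was at 297, 311 and 296 against 166, 158 and 80.2 CPM (-1.16, standard error 0.26, adjusted p = 0.144). NSC liver 3 was the lowest for both, and its list score was -0.71. The iron hormone gene *Hamp* overlapped (0.49, standard error 0.39).

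Chemokine and cytokine genes of the same inflammatory setting had counts near the background. *Cxcl1*, a neutrophil attractant, was at 150, 165 and 192 CPM with vehicle and at 48.3, 122 and 66.2 CPM with NSC (-1.10, standard error 0.31, adjusted p = 0.178), and *Cxcl10*, an interferon target, at 5.23, 3.04 and 6.30 against 1.49, 2.04 and 1.26 CPM (-1.60, standard error 0.34, adjusted p = 0.138). *Il1a* was at 2.04, 2.49 and 1.82 against 7.20, 3.30 and 3.04 CPM, higher in all NSC livers and most so in liver 1. Over 34 tested chemokine, cytokine and receptor genes 5 were lower (14.7%, against 9.29% of all genes) and 2 higher (5.88%, against 7.20%) at an unadjusted p under 0.05. The median of -0.13 became -0.52 without NSC liver 1 and 0.10 without NSC liver 3. Interferon response genes had a median of 0.15 (0.09 without NSC liver 2, 0.27 without NSC liver 3). At that threshold 3 of 46 were lower (6.52%, against 9.29% of all genes) and 1 higher (2.17%, against 7.20%).

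Gluconeogenesis and its control by insulin were lower in part. The list of 32 genes had a median of -0.33, and 9 were lower (28.1%, against 9.29% of all genes) and 2 higher at an unadjusted p under 0.05. The median was -0.30 without NSC liver 1 and -0.21 after GC correction. *Pck1*, the rate-setting enzyme of gluconeogenesis, was at 3220, 3122 and 1732 CPM with vehicle and at 1533, 1076 and 1068 CPM with NSC (-1.14, standard error 0.29, adjusted p = 0.153). *Pcx*, which supplies it with oxaloacetate, was at 570, 581 and 459 against 330, 293 and 254 CPM (-0.88, standard error 0.20, adjusted p = 0.144; -0.52 after GC correction), and *Got1*, a transaminase of the malate-aspartate shuttle, at 145, 251 and 248 against 99.2, 80.9 and 120 CPM. The insulin receptor substrate gene *Irs2* was at 28.3, 33.5 and 12.0 CPM against 6.64, 6.09 and 4.58 CPM (-2.09, standard error 0.36, adjusted p = 0.137). None of these groups overlapped.

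Urea cycle and amino acid breakdown genes showed a similar size of difference, with 31 of 35 lower, a median of -0.34, and 9 lower (25.7%, against 9.29% of all genes) and 1 higher at an unadjusted p under 0.05. *Cbs*, of the transsulfuration pathway, was at 645, 714 and 562 against 323, 391 and 371 CPM (-0.82, standard error 0.19, adjusted p = 0.147), and *Cps1*, the entry enzyme of the urea cycle, at 3235, 4978 and 3466 against 2030, 2866 and 2350 CPM. After GC correction the list median was -0.20, with 4 genes lower at that threshold (against 4.24% of all genes). The median was -0.22 without NSC liver 1 and -0.20 without vehicle liver 2. Glycolysis and hypoxia targets had 8 of 26 lower (30.8%, against 9.29% of all genes) and none higher at an unadjusted p under 0.05, with a median of -0.28. After GC correction the median was -0.13, with 3 lower and 1 higher at that threshold (against 4.24% and 3.94% of all genes). *Ndrg1* and *Pkm* were lower by 0.95 (standard error 0.22) and 0.86 (standard error 0.25), the latter -0.51 after GC correction.

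Extracellular matrix genes were lower with NSC, most clearly in livers 2 and 3. Of 59 genes tested 48 were lower, 26 at an unadjusted p under 0.05 (44.1%, against 9.29% of all genes) and 23 with groups apart (39%, against 12.9%), with none higher at that threshold. The median log2 fold change was -0.73, and it was -1.09 without NSC liver 1, where 37 genes were called lower (against 3.78% of all genes). After GC correction it was -0.54, with 16 lower at an unadjusted p under 0.05 (against 4.24% of all genes). The list scores were 0.58, 0.48 and 0.16 in the vehicle livers and 0.24, -0.62 and -0.69 in the NSC livers, so NSC liver 1 overlapped with the vehicle group.

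Fibrillar collagen genes were lowest in NSC livers 2 and 3, with NSC liver 1 between these and the vehicle livers. *Col1a1* was at 56.3, 54.7 and 27.2 CPM with vehicle and at 17.8, 5.24 and 5.10 CPM with NSC (-2.29, standard error 0.62, adjusted p = 0.199; without NSC liver 1 -3.14, adjusted p = 0.000832). *Col1a2* was at 64.6, 59.9 and 30.7 against 23.5, 10.4 and 11.18 CPM, and *Col3a1* at 205, 170 and 115 against 104, 32.4 and 36.9 CPM. In resected liver, on the scale of 9 libraries, these 3 collagen genes did not exceed 5.96, 11.1 and 25.3 CPM. The collagen chaperone gene *Serpinh1* was at 43.1, 32.0 and 47.8 CPM against 23.6, 12.3 and 18.0 CPM (-1.19, standard error 0.25, adjusted p = 0.137). *Col18a1*, which hepatocytes make, was at 781, 886 and 558 CPM against 380, 347 and 344 CPM (-1.05, standard error 0.22, adjusted p = 0.137; -0.61 after GC correction), and its NSC livers differed little among themselves.

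*Timp1*, an inhibitor of matrix proteases, turned on NSC liver 1. It was at 7.30, 6.27 and 6.15 CPM with vehicle and at 11.9, 1.77 and 1.34 CPM with NSC. *Tgfb2* overlapped (0.47, standard error 0.50).

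Markers of the cells that make matrix moved with these genes. Of 22 stellate cell and fibroblast markers 8 were lower (36.4%, against 9.29% of all genes) and 1 higher at an unadjusted p under 0.05. The median was -0.35, with -0.67 without NSC liver 1 and -0.16 without NSC liver 2. Their summed level was 840, 841 and 667 CPM in the vehicle livers and 801, 437 and 481 CPM in the NSC livers, and 458 to 517 CPM in resected liver. The list shares collagen genes with the matrix list. *Pdgfrb*, the platelet-derived growth factor receptor of stellate cells, was at 15.9, 17.6 and 12.7 against 8.66, 6.43 and 7.51 CPM (-1.03, standard error 0.20, adjusted p = 0.134), while the retinol esterase gene *Lrat* overlapped (-0.38, standard error 0.48; -0.70 after GC correction). All 14 tested mesothelial markers had a negative fold change, with a median of -0.90. An unadjusted p under 0.05 was reached by 2 (14.3%, against 9.29% of all genes), and 7 lay apart (50%, against 12.9%). The median was -1.84 without NSC liver 1 and -0.48 without NSC liver 3, and the score of NSC liver 1 (0.66) lay within the vehicle range (0.62 to 1.03). NSC liver 3 was lowest, with *Msln* at 0.119 CPM (3 counts) against 9.63 to 9.87 CPM with vehicle and 7.20 and 5.27 CPM in NSC livers 1 and 2. The part of stellate cell, fibroblast and mesothelial content in the matrix result was not tested.

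Mitotic genes set NSC liver 1 against NSC livers 2 and 3. In 57 of 60 G2/M genes, NSC livers 2 and 3 were above every vehicle liver and NSC liver 1 was below every one. Over all 14485 tested genes, 713 (4.92%) had this pattern and 532 (3.67%) its mirror image. The median over the list was 0.91 with all livers and 0.76 after GC correction. It was 1.39 without NSC liver 1, where 53 of 60 genes were called higher (against 4.25% of all genes). Without NSC liver 2 the median was 0.45, and with the replicate number as a block it was 0.617. With all livers 4 genes were higher at an unadjusted p under 0.05 (6.67%, against 7.20% of all genes), and after GC correction none was. The list scores were -0.15, -0.16 and -0.49 with vehicle and -1.43, 1.22 and 0.93 with NSC.

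*Cdk1*, the kinase that starts mitosis, was at 59.3, 57.5 and 50.2 CPM with vehicle and at 24.7, 166 and 185 CPM with NSC (1.17, standard error 0.72, adjusted p = 0.462; without NSC liver 1 1.67, adjusted p = 2.90e-05). Its partner *Ccnb1*, cyclin B1, was at 30.5, 28.2 and 26.1 against 8.60, 115 and 109 CPM. *Cdc20*, an activator of the anaphase promoting complex, was at 54.0, 58.2 and 36.1 CPM against 8.60, 175 and 154 CPM. Resected livers did not exceed 1.42 CPM for *Cdk1*, 0.214 CPM for *Ccnb1* and 0.627 CPM for *Cdc20*, so NSC liver 1 was also above that level. The proliferation marker *Mki67* was at 114, 123 and 90 CPM against 63.3, 239 and 162 CPM, and *Stmn1*, a microtubule regulator, at 43.2, 54.6 and 42.3 against 23.2, 87.3 and 103 CPM.

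**Figure D4:**
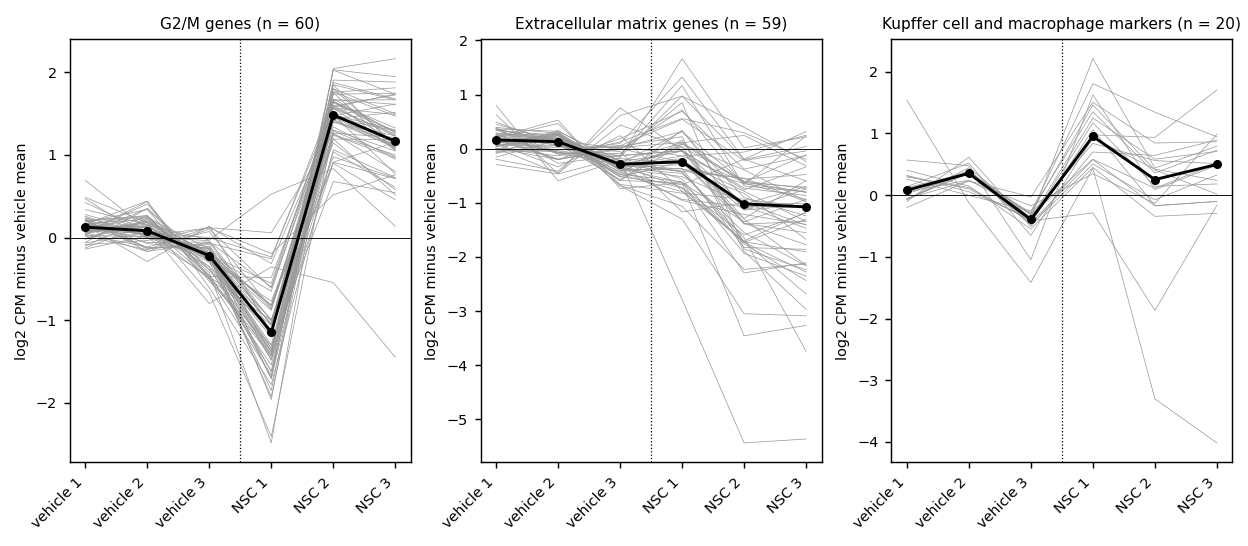
Log2 CPM minus the vehicle mean (y axis) in the 6 livers (x axis) for the G2/M (60), extracellular matrix (59) and Kupffer cell and macrophage (20) lists, with 1 grey line per tested gene and the median in black. G2/M genes dip in NSC liver 1 and peak in NSC livers 2 and 3, matrix genes are lowest in NSC livers 2 and 3, and macrophage markers are highest in NSC liver 1.

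DNA synthesis genes, which act before mitosis, differed by less. Of 53 S phase genes 42 were higher with NSC, 12 at an unadjusted p under 0.05 (22.6%, against 7.20% of all genes) and 2 lower, and 7 lay apart upward (13.2%, against 9.88%). Their median was 0.32, or 0.37 without NSC liver 1, 0.20 without NSC liver 3 and 0.27 after GC correction. Without NSC liver 1, 12 were called higher and 1 lower, against 4.25% and 3.78% of all genes. The score of NSC liver 1 (-0.12) lay within the vehicle range of -0.19 to 0.02, below 0.29 and 0.16 in NSC livers 2 and 3, and 7 genes had the split seen in the G2/M list. *Pcna*, the sliding clamp of DNA polymerase, was at 40.2, 45.1 and 48.4 CPM with vehicle and at 58.0, 57.4 and 56.1 CPM with NSC (0.36, standard error 0.14, adjusted p = 0.263; 0.22 after GC correction). The helicase-like gene *Hells* was at 5.71, 6.51 and 6.98 CPM against 13.4, 13.6 and 11.5 CPM (1.00, standard error 0.19, adjusted p = 0.134) and differed by 0.58 after GC correction. *Ccne2*, cyclin E2, was at 3.39, 2.52 and 4.40 against 9.25, 6.26 and 6.005 CPM. For these 3 genes NSC liver 1 lay with the other NSC livers, above all vehicle livers. Cyclin D1, *Ccnd1*, was at 178, 73.0 and 69.3 against 113, 75.2 and 57.5 CPM. Among 18 growth arrest genes 3 were higher (16.7%, against 7.20% of all genes) and 4 lower (22.2%, against 9.29%) at an unadjusted p under 0.05. *Cdkn1b*, the inhibitor p27, was at 16.6, 13.8 and 17.0 against 16.3, 30.8 and 29.6 CPM.

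**Figure D5:**
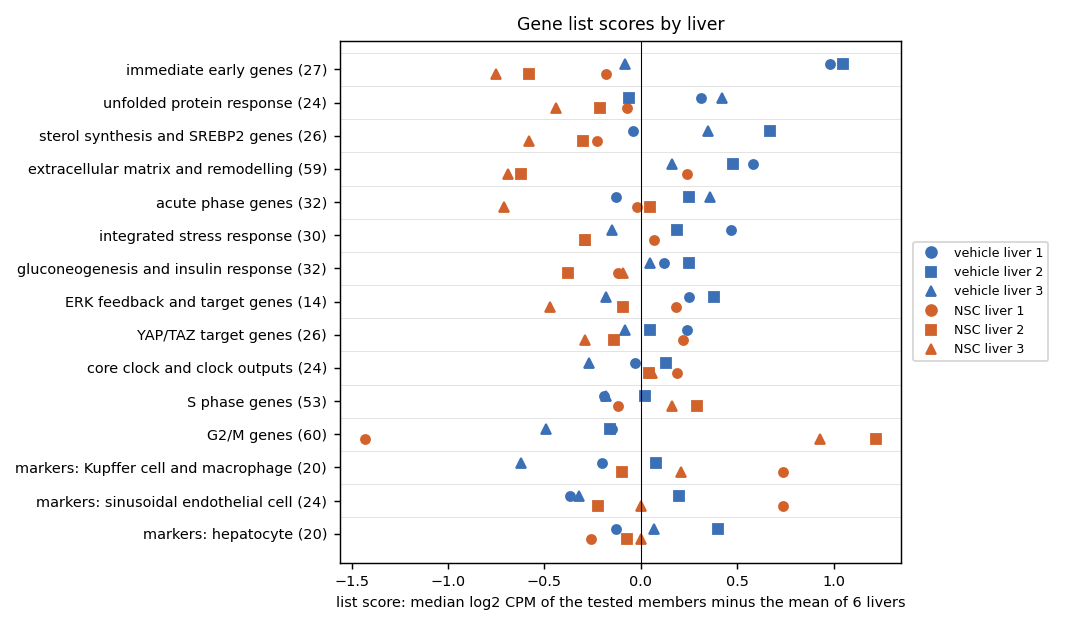
List scores (x axis, median log2 CPM of the tested members minus the mean of 6 livers) for 15 gene lists, with the number of tested members in brackets and 1 symbol per liver. Immediate early, unfolded protein response, sterol and gluconeogenesis scores of all NSC livers lie below those of all vehicle livers, whereas G2/M scores of the NSC livers lie on both sides of them. For the unfolded protein response the groups nearly touch, with vehicle liver 2 at -0.06 and NSC liver 1 at -0.07. For immediate early genes vehicle liver 3 lies at -0.08 and NSC liver 1 at -0.18.

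Kupffer cell and macrophage markers were higher with NSC, above all in NSC liver 1. Of 20 tested markers 17 were higher, 8 at an unadjusted p under 0.05 (40%, against 7.20% of all genes) and 7 with groups apart (35%, against 9.88%), and none was lower at that threshold. The median was 0.59, but 0.29 without NSC liver 1 and 0.74 after GC correction. The list scores were -0.20, 0.08 and -0.62 with vehicle and 0.74, -0.10 and 0.21 with NSC, so NSC liver 2 lay within the vehicle range. Summed levels were 464, 534 and 315 CPM in the vehicle livers, 916, 516 and 580 CPM in the NSC livers and 388 to 498 CPM in resected liver. *Vsig4*, a complement receptor of resident macrophages, was at 11.0, 14.8 and 12.3 against 35.9, 22.7 and 22.99 CPM (1.10, standard error 0.22, adjusted p = 0.137). *Timd4*, which takes up dying cells, was at 2.93, 3.94 and 2.505 against 10.9, 7.89 and 5.97 CPM (1.40, standard error 0.29, adjusted p = 0.137), and *Clec4f*, which marks Kupffer cells in mice, at 45.8, 61.4 and 38.6 against 85.3, 70.3 and 68.0 CPM (0.62, standard error 0.20). The general macrophage genes *Csf1r* and *C1qa* overlapped. The part of macrophage content in the *Saa3* difference was not tested.

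Markers of sinusoidal endothelial cells had a median of 0.45, with 4 of 24 higher at an unadjusted p under 0.05 (16.7%, against 7.20% of all genes), and of 0.10 without NSC liver 1. Their summed level was 945 CPM in NSC liver 1 and 486 to 699 CPM in the other 5 livers. Neutrophil and monocyte markers had a median of 0.01 over 14 genes (-0.18 without NSC liver 1, 0.20 without vehicle liver 2), none at an unadjusted p under 0.05, and summed to 1430 to 1670 CPM with vehicle and 788 to 1590 CPM with NSC. Lymphocyte markers summed to at most 16.3 CPM in any of the 6 livers. Hepatocyte markers had a median of -0.20 (-0.05 without vehicle liver 2), with 5 of 20 lower (25%, against 9.29% of all genes) and 1 higher at an unadjusted p under 0.05. Cholangiocyte markers had one of -0.35 (-0.06 without vehicle liver 1, -0.07 after GC correction), with 1 of 11 lower (9.09%) at that threshold. Their summed level went the other way, at 283, 278 and 232 CPM in the vehicle livers and 334, 292 and 302 CPM in the NSC livers. Of 19 pancreas, fat and muscle markers 9 were at 0 in all 6 livers, and most of the summed level of 9.44 to 18.1 CPM came from the elastase gene *Cela1*, at 8.72 to 17.7 CPM.

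Circadian genes differed in both directions. Of 24 tested, 6 were higher (25%, against 7.20% of all genes) and 5 lower (20.8%, against 9.29%) at an unadjusted p under 0.05. The median was 0.17, and 0.29 without vehicle liver 2. *Nr1d2*, the repressor REV-ERB beta, was at 13.7, 14.7 and 9.11 CPM with vehicle and at 30.2, 36.9 and 18.9 CPM with NSC (1.20, standard error 0.27, adjusted p = 0.144). *Nfil3*, which opposes *Dbp*, was at 63.3, 78.8 and 64.4 against 39.8, 39.1 and 36.1 CPM (-0.84, standard error 0.15, adjusted p = 0.134), and *Per1*, which also responds to CREB, at 24.2, 28.4 and 10.9 against 7.76, 8.60 and 10.6 CPM. *Dbp* was low in all 6 livers, at 0.569 to 1.37 CPM.

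NRF2 targets, which defend against oxidants, were on the higher side. Their median was 0.36, with 5 of 29 higher (17.2%, against 7.20% of all genes) and none lower at an unadjusted p under 0.05. After GC correction 2 were higher at that threshold, against 3.94% of all genes. The median was 0.08 without NSC liver 3, and the score of NSC liver 1 (-0.10) lay within the vehicle range of -0.26 to 0.07. *Gclm*, a subunit of the enzyme that makes glutathione precursor, was at 158, 117 and 123 CPM with vehicle and at 197, 203 and 219 CPM with NSC (0.64, standard error 0.18, adjusted p = 0.165; 0.38 after GC correction). Targets of p53 had a median of 0.19, with 4 of 25 higher (16%) and 1 lower at an unadjusted p under 0.05, a median of -0.04 without NSC liver 2 and one of 0.09 after GC correction. *Eda2r*, a p53-induced death receptor gene, was at 2.07, 2.44 and 2.88 against 4.44, 5.30 and 4.27 CPM. Apoptosis regulators had a median of 0.09 (0.18 without vehicle liver 2, 0.22 after GC correction), with 4 of 29 higher (13.8%) and 2 lower at that threshold.

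Growth factor and receptor genes had a median of -0.02 (-0.23 without NSC liver 1, 0.10 without vehicle liver 1), with 3 of 41 higher (7.32%, against 7.20% of all genes) and 6 lower (14.6%, against 9.29%) at an unadjusted p under 0.05. The growth hormone receptor gene *Ghr* was at 125, 169 and 186 CPM with vehicle and at 225, 260 and 252 CPM with NSC (0.62, standard error 0.19, adjusted p = 0.190; 0.32 after GC correction), and the FGF19 receptor gene *Fgfr4* at 45.5, 52.6 and 33.5 against 24.1, 29.3 and 30.03 CPM (-0.66, standard error 0.19, adjusted p = 0.174; -0.27 after GC correction).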

How the data were processed

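RNA-Seq libraries were made from polyadenylated RNA with a stranded kit. The authors aligned reads with STAR 2.6.1 within MAP-RSeq, counted them on genes with Subread 1.5.1 and deposited raw counts per gene and library, without normalization, beside FPKM values. The deposited FPKM could be recomputed from the counts, with relative differences of at most 4.96e-10, and FPKM was not used further. The sources name a human build, whereas gene identifiers and coordinates are mouse ones, given here as deposited. All 37 mitochondrial genes are listed at 0.

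Counts of the 6 remnants were filtered with filterByExpr, scaled by TMM and fitted with edgeR 4.0.16 (quasi-likelihood, robust, treatment as the only term) in R 4.3.3. Of 43346 genes, 14485 were tested. Limma 3.58.1 and DESeq2 1.42.0 served as alternatives, with RLE or no factors, other filters, all 9 libraries, a replicate term, a GC loess correction (span 0.5, GC content known for 99.2% of tested genes) and each library left out. Lists, motifs and plots were made in Python 3.11.15. Levels are TMM-scaled CPM, and log2 CPM used a prior count of 2. The standard error is the absolute log2 fold change divided by the square root of F. The fit was tested on simulated data.

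The 41 gene lists and the members were chosen with earlier results of these data known, so lists are described by counts and medians, without tests, against shares over all genes. Named genes were the called ones, those with groups apart and the smallest p up to 10 per direction, up to 4 members of each list with the smallest p, defining members, genes the study names, and the 10 with the widest spread within a group. The study calls the libraries of a group biological replicates. With 3 livers per group, precision is limited by the spread between livers, and the part of depth in it was not tested. Some genes are counted in their lists but are not reported here one by one.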

Additional observations from a re-analysis of the deposited data

How the results depend on the processing

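The count of 6 called genes was 15 at an adjusted p under 0.10, 5 with an absolute log2 fold change over 1.5, 253 without a filter on low counts (23297 genes tested), 386 by DESeq2, 256 by edgeR's exact test, 1705 with limma voom and sample quality weights and 2 (*Saa3* and *Egr2*) after GC correction. RLE factors gave 5, library size only 4, a minimum of 10 counts in every library 6 and the fit of 9 libraries 6. With 1 library left out it ranged from 1 to 1179, the latter without NSC liver 1. The replicate number as a block gave 32 calls. Nothing in the labels pairs the livers, so the numbers were not treated as pairs. Deviations of same-numbered livers correlated at 0.142, 0.076 and 0.020, and those of differently numbered livers at -0.11 to 0.061. Whether livers of the same number were handled together was not tested. Medians of the 11 main lists moved by less than the spread between livers under every alternative run. Medians near 0 changed sign with library size only for YAP/TAZ targets (0.107), growth factors and receptors (0.114), heat shock genes (0.0152), chemokines and cytokines (0.00786), bile acid genes (0.125), hepatocyte identity factors (0.0838) and ribosome biogenesis genes (0.0327), and that of p53 targets ranged from -0.0374 to 0.206 with 1 library left out. Of the genes described above, those whose log2 fold change changed sign were *Ptpn11* (0.0618), *Dnajb9* (0.0401) and *Alb* (0.0641) with library size only, *Ptpn11* (0.0082), *Yap1* (-0.0729) and *Atf4* (0.00809) after GC correction, and *Ctgf* (-0.287) and *Fgf21* (-2.61) with sample quality weights. With 1 library left out, log2 fold changes spanned 0 for *Timp1* (-2.06 to 0.0566), *Ctgf* (-0.0604 to 0.989), *Nuak2* (-0.016 to 0.276), *Yap1* (-0.0134 to 0.154), *Fgf21* (-4.03 to 4.19), *Lrat* (-0.838 to 0.161), *Dnajb9* (-0.323 to 0.115), *Alb* (-0.181 to 0.0155), *Cela1* (-0.124 to 0.416) and *Ccnd1* (-0.676 to 0.222). The causes were not tested. Depth set a floor of 0.07 to 0.125 CPM.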

Other observations

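The genes with the widest spread within a group, chosen for that spread and therefore given without a test, set apart different livers. Several of them set NSC liver 1 against NSC livers 2 and 3. *Hsd3b5*, a steroid dehydrogenase gene typical of male liver, was at 4.90, 6.82 and 13.8 CPM with vehicle and at 1.40, 36.1 and 60.1 CPM with NSC, against 83.3 to 151 CPM in resected liver. *Cyp2c55* was at 9.18, 16.0 and 10.02 against 2.76, 58.4 and 117 CPM, and the glutathione transferase gene *Gsta1* at 2.93, 1.86 and 1.10 against 0.807, 11.0 and 36.6 CPM. *Cyp2c69* ran the other way, at 30.1, 23.7 and 58.5 against 43.1, 1.77 and 1.94 CPM. These genes belong to multigene families, and reads may be shared with close copies. *Moxd1* was high in vehicle liver 2 (18.4 CPM) and in NSC livers 2 and 3 (28.2 and 20.9 CPM) and at most 0.380 CPM in the other 3. *Reg3b* was at 39.0 CPM in NSC liver 3 and at most 5.66 CPM elsewhere.

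Genes of PPARA, the fasting-responsive regulator of fatty acid oxidation, were highest in vehicle liver 1 and NSC liver 1. The list scores were 0.44, -0.25 and -0.14 with vehicle and 0.52, -0.26 and -0.18 with NSC. The median log2 fold change was 0.05 over 43 genes (-0.29 without NSC liver 1, 0.42 without vehicle liver 1). At an unadjusted p under 0.05, 2 were higher (4.65%, against 7.20% of all genes) and 2 lower (4.65%, against 9.29%). *Fgf21*, the PPARA-induced hormone gene, was at 11.0, 0.577 and 0.797 CPM with vehicle and at 36.5, 0.374 and 0.119 CPM with NSC. Growth hormone-dependent genes of male and female liver scored -0.47, 0.07 and 0.11 with vehicle and -0.28, 0.22 and 0.33 with NSC. The repressor gene *Bcl6*, which growth hormone lowers, was at 24.8, 16.7 and 12.0 against 3.85, 7.45 and 8.89 CPM (-1.41, standard error 0.35, edgeR adjusted p = 0.156). Cytochrome P450 genes of families 1 to 3 had a median of 0.18 over 39 genes, 0.01 after GC correction and 0.03 without NSC liver 3. Bile acid genes had a median of -0.00052 over 25 genes, hepatocyte identity factors one of -0.05 over 20, and fetal liver genes one of -0.43 over 12, which was -0.01 without vehicle liver 1, with no gene at an unadjusted p under 0.05 by edgeR.

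Genes outside the lists that came closest to a call in the upward direction, all with groups apart, included *Chil1*, a chitinase-like gene, at 0.765, 0.892 and 0.797 CPM with vehicle and 2.70, 2.89 and 3.24 CPM with NSC (1.84, standard error 0.30, edgeR adjusted p = 0.0888). *Nox4*, which encodes a hydrogen peroxide-producing oxidase, was at 14.3, 14.7 and 14.4 against 21.5, 26.1 and 25.5 CPM (0.75, standard error 0.16, edgeR adjusted p = 0.137; 0.34 after GC correction).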
